A study of Mus musculus with 23 samples.

Results

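Interferon response genes were followed in primary mouse embryonic fibroblasts 2 hours after serum was restored to starved cultures. The 7 genes were Irf1, Irf7, Ifit1, Ifit2, Ifit3, Gbp2 and Cxcl10. They were found as every probe set that the array's annotation gives to 1 of these symbols alone, which left 8 of the 12422 probe sets tested, with 2 probe sets for Irf7 and 1 for each other gene. A probe set is a group of short array probes that report on 1 transcript. The table held 8251 genes with a single symbol.

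Interferons are secreted cytokines that cells release mainly when they sense viruses or bacteria. They bind receptors coupled to Janus kinases, which phosphorylate STAT proteins, and complexes of STATs and interferon regulatory factors then switch on a broad set of interferon-stimulated genes. Fibroblasts can both make type I interferon and answer it. Irf1 and Irf7 are transcription factors of the system, the Ifit proteins bind foreign RNA or hinder translation, Gbp2 is a GTPase that acts on intracellular pathogens, and Cxcl10 is a chemokine for T cells.

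The cells were primary fibroblasts of e14.5 embryos, and the labels of all groups give the genotype C57/BLACK6, ATF1 -/+, so no comparison was made with another genotype. Cultures were starved for 48 hours in 1% dialysed serum and then spent 2 hours with 200 µM 4-thiouridine and tritiated cytidine, in 10% serum (treated) or still in 1% serum (starved). Newly transcribed RNA is the thiol-bearing RNA made in those hours, which was captured on an organomercurial matrix, and it gave 4 arrays of treated and 4 of starved cells. Amplified total RNA gave 4 and 3 arrays, and total RNA that the titles do not call amplified gave 4 and 4. Arrays carry biological replicate numbers in their titles, but nothing says that each came from a separate culture, so p-values measure the spread between these arrays.

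The deposited median intensity of an array lay between 24.2 and 72.05 for newly transcribed RNA, between 7.3 and 75.2 for amplified total RNA and between 20 and 54.2 for total RNA, so all 23 arrays were quantile normalized. By their whole profiles the arrays of newly transcribed and amplified RNA formed 2 clusters, each with both serum conditions. The first held newly transcribed arrays 1 and 4 of both serum conditions, amplified treated arrays 1 and 4 and amplified starved arrays 1 and 3, and the second held the rest with all total RNA arrays. The 3' over 5' difference of the control transcript GAPDH was 1.78 to 3.36 (log2) in the first and 1.46 to 2.11 in the second cluster of newly transcribed RNA, and 1.30 to 2.19 and 0.70 to 1.23 in amplified RNA. It averaged -0.20 ± 0.11 (SD, n = 8) in total RNA. Of 14 fibroblast markers, 13 were above an intensity of 16 on all 23 arrays. The endothelial markers Cdh5 and Tie1 and the T cell markers Cd3e and Cd8a were under 16 on all 23, while Eng and Itgax, 1 of 9 endothelial and 1 of 8 lymphocyte and dendritic markers, were above 16 on all of them. The others in both lists were mixed. Endothelial ones ran from Flt1 (median 63.3, under 16 on 4 arrays) to Emcn (median 12.3, under it on 16). T cell ones ran from Cd4 (median 29.2, under it on 4) to Cd3g (median 2.5, under it on 22). Of 19 macrophage markers, 13 were above 16 on all arrays, so transcripts of those 13 were measured in these cultures. The others were mixed. They ran from Mrc1 (median 58.7, under 16 on 1 array) to Aif1 (median 6.3) and Itgam (median 4.9), each under it on 17.

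RefSeq promoters on build GRCm38.p6 were available for 7 of the 7 genes, as 9 windows of 250 bases before to 50 after a transcription start. The short stretches below are shown because they hold the letters that interferon signalling reads. The interferon-stimulated response element (ISRE), bound by interferon regulatory factors and by the STAT complex of type I interferon, was searched as GAAANNGAAA. The gamma-activated site (GAS), bound by STAT dimers, was searched as TTCNNNGAA. Both were searched on both strands, and capitals mark the match.
Gbp2, ISRE, chr3:142620584-142620633, plus strand: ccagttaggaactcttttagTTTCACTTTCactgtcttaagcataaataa
Ifit1, ISRE, chr19:34640765-34640814, plus strand: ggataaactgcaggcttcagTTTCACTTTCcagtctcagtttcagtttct
Ifit3, ISRE, chr19:34583353-34583402, plus strand: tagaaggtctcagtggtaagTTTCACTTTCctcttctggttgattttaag
Cxcl10, ISRE, chr5:92349073-92349122, minus strand: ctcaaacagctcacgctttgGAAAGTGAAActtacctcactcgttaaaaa
Irf1, GAS, chr11:53769904-53769952, plus strand: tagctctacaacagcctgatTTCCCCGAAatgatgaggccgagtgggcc
Ifit2, GAS, chr19:34550444-34550481, plus strand: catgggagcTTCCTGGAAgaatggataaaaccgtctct

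The matches of Gbp2, Ifit1 and Ifit3 lie on the strand opposite to the gene, and the same 10 letters stand in all 3. Ifit1 holds a second ISRE match from -85 to -76 and Ifit3 one from -122 to -113 relative to its start. Of all 32851 promoter windows in the table, 3.44% held the ISRE letters and 8.3% the GAS letters. NF-kB matches, found in 8.46% of all windows, stood in the windows of Gbp2, Irf1, Ifit2 and Cxcl10. The one of Ifit2 overlaps its GAS match, and 2 of the 3 in Cxcl10 overlap each other. The AP-1 letters TGANTCA were found in Gbp2, Ifit3 and Cxcl10 and in 7.81% of all windows. The half-site TGACG, the letters of CREB and ATF factors, was found in Irf7 alone of these genes and in 20.8% of all windows. The serum response factor's CArG box was in none of the 9 windows and in 1.63% of all. A match describes letters in a window and shows no binding.

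By normalized values, the genes differed in direction when serum was restored. Irf1 was lower in serum-treated cells in every replicate number of all 3 kinds of RNA, and Ifit2 was lower in 9 of 11. Gbp2 was higher in 10 of 11 numbers, and Ifit1, Ifit3, Irf7 and Cxcl10 gave small or mixed differences. No member probe set passed an adjusted p of 0.05 in limma's test of any serum comparison without the replicate number as a block. Among the 8 probe sets, 0, 1 and 1 had an unadjusted p below 0.05 in newly transcribed, amplified total and total RNA. Over all 12422 probe sets the same test called 0% in newly transcribed RNA, 0% in amplified total RNA and 0.121% in total RNA, with 800, 175 and 614 at an unadjusted p below 0.05. With the replicate number as a block, where numbers pair, 4 of 8 members were below it in newly transcribed and 4 of 8 in total RNA. Limma's adjusted p of these members ran up to 0.195 in newly transcribed and 0.452 in total RNA. The blocked share of all probe sets at that level was not counted, so these counts show nothing particular to the members. After adjustment the blocked fits called 1 and 0 members, against 1.74% and 0.483% of all probe sets. The sign was the same in all 4 numbers for 5 of 8 members in newly transcribed RNA, as for 28.2% of all probe sets, and for 2 of 8 in total RNA, as for 19.2%. The median serum difference of the members was 0.01 in newly transcribed, 0.14 in amplified total and 0.16 in total RNA, against 0.01, -0.01 and -0.01 over all probe sets.

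**Figure D1:**
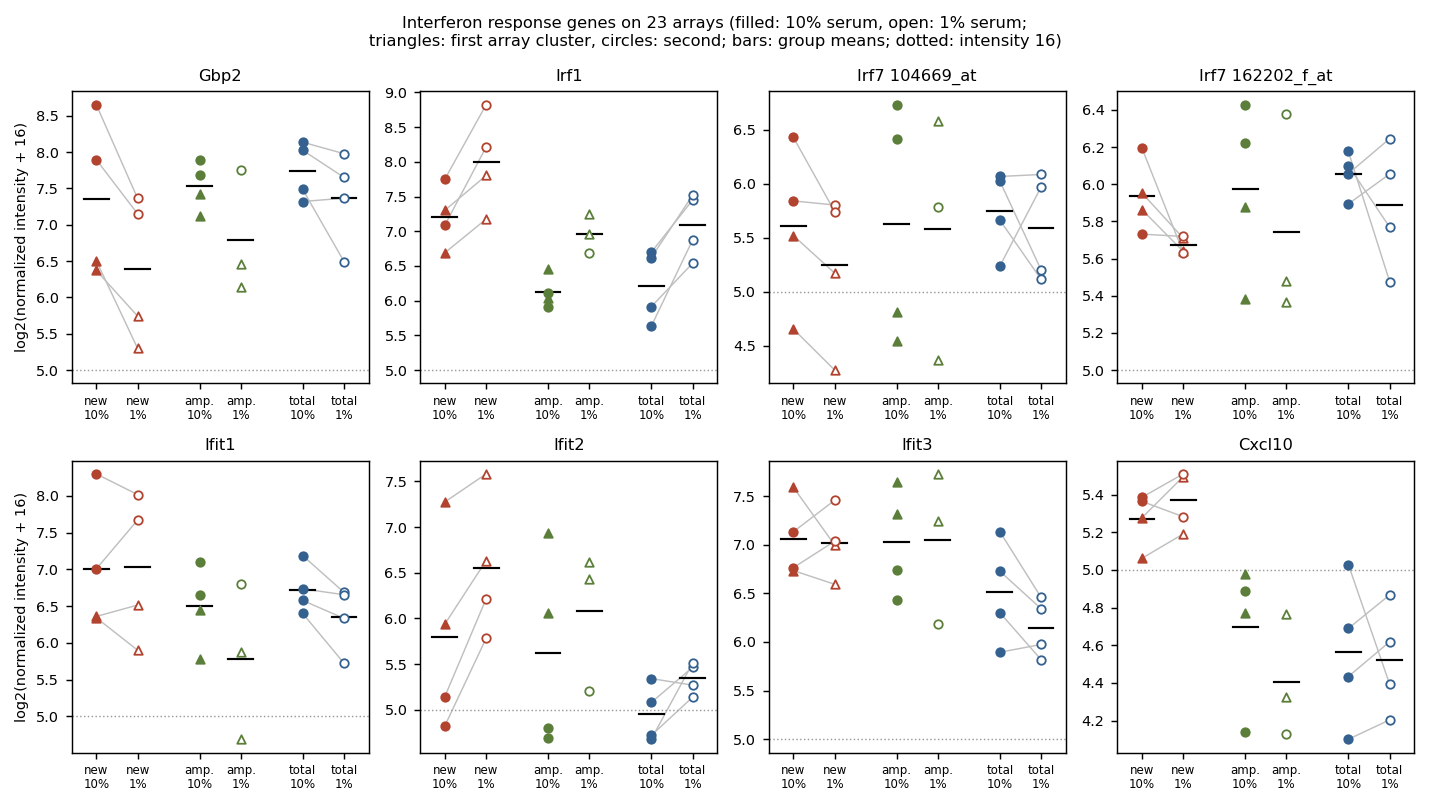
Level of each probe set, as log2(normalized intensity + 16), on each of the 23 arrays in newly transcribed (new), amplified total (amp.) and total RNA of cells in 10% and 1% serum. Grey lines join arrays of the same replicate number where the numbers pair, black bars are group means, triangles and circles are the array clusters, and the dotted line is an intensity of 16. Irf1 is lower in 10% serum along every grey line, and Gbp2 and Ifit1 triangles lie below the circles in newly transcribed RNA.

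Irf1 is a transcription factor that interferon gamma induces within minutes to hours and that switches on antiviral and antigen presentation genes. In newly transcribed RNA it had intensities of 87.2, 199, 119.9 and 142 on treated arrays 1 to 4, against 128, 437, 281 and 207 on starved arrays 1 to 4. Amplified total RNA gave 72.1, 52.9, 43.9 and 49.8 on treated arrays, against 136, 86.8 and 109 on starved arrays. In total RNA it had 33.5, 87.7, 82.3 and 44.2 on treated arrays, against 101, 159, 167 and 76.9 on starved arrays. Each treated array lay below the starved array of its number in all 11 cases, although by the check on array profiles the numbers do not pair the 3 amplified cases. The groups did not overlap in amplified RNA, where the groups of 1.15% of all probe sets were apart in this direction, and they overlapped in newly transcribed and total RNA. With values as deposited, treated exceeded starved in number 2 of total RNA (96.1 against 62.2) and number 1 of amplified RNA (25.7 against 19). The amplified groups then overlapped. Those 2 starved arrays had deposited medians of 20 and 7.3.

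The fitted differences of Irf1 between 10% and 1% serum lay between -0.88 and -0.80 in the 3 kinds of RNA. On the log2(intensity + 16) scale, where changes of dim probe sets look smaller than they are, treated minus starved was -0.80 ± 0.37 (SE) in newly transcribed RNA, with limma's adjusted p = 0.835. It was -0.84 ± 0.22 in amplified total RNA (unadjusted p = 0.00646, limma's adjusted p = 1) and -0.88 ± 0.31 in total RNA (unadjusted p = 0.0205, limma's adjusted p = 0.864). With the replicate number as a block, where numbers pair, its error fell to 0.16 in newly transcribed RNA (limma's adjusted p = 0.0676). In total RNA it fell to 0.13 (limma's adjusted p = 0.0718). Irf1 thus failed the correction over all probe sets in each kind, with or without the block. By normalized values Irf1 was the 1 member with the same sign in all 11 numbers, as were 2.7% of all probe sets. Number by number the difference was between -1.13 and -0.48 for newly transcribed, between -1.06 and -0.58 for amplified total and between -1.24 and -0.63 for total RNA. The Irf1 response of newly transcribed RNA minus that of total RNA was 0.08 ± 0.51, and minus that of amplified total RNA it was 0.04 ± 0.46 (limma's adjusted p = 0.999 and 1). With errors of this size the test does not show that the responses are alike.

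Irf1 stood higher in newly transcribed RNA than in amplified total RNA. In treated cells the difference was 1.08 ± 0.25 without overlap (limma's adjusted p = 0.0544), where 4.56% of all probe sets were higher without overlap. With values as deposited these groups overlapped, with 50.2 on newly transcribed array 1 and 90.4 on amplified array 4. With the replicate number as a block, which newly transcribed and amplified treated arrays share by the check on their profiles, Irf1 was the 1 member called, at limma's adjusted p = 0.029, in a fit that called 21.1% of all probe sets. In starved cells the difference was 1.04 ± 0.39 (limma's adjusted p = 0.21). Against amplified total RNA, 0 of 8 members passed without the block in treated cells, where 4.05% of all probe sets did, and 0 of 8 in starved cells, where 3.17% did; 2 of 8 had an unadjusted p below 0.05 in each. In the order of its 6 group means Irf1 ran from newly transcribed starved (8.0 ± 0.69, SD) through newly transcribed treated (7.21 ± 0.44), total starved (7.09 ± 0.47) and amplified starved (6.97 ± 0.28) to total treated (6.21 ± 0.53) and amplified treated (6.13 ± 0.24). The steps from newly transcribed starved to treated and from amplified starved to total treated exceeded the SD of both neighbours, and the other 3 did not.

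Irf7 is the factor that amplifies type I interferon genes after a first wave of signalling. By normalized values its 2 probe sets were both higher in all 4 treated arrays of newly transcribed RNA than in the starved array of the same number. Probe set 162202_f_at had 42.2, 37.1, 57.3 and 46.0 on treated arrays, against 33.8, 36.7, 33.6 and 36.4 on starved arrays, and its groups did not overlap. Over all probe sets, 2.13% were higher without overlap in newly transcribed RNA, and Irf7 162202_f_at was the 1 member among them. Its difference was 0.26 ± 0.13 (limma's adjusted p = 0.854), and that of 104669_at was 0.36 ± 0.46 (limma's adjusted p = 1). With values as deposited these differences were 0.00023 and 0.082. Treated arrays 1 and 2 then lay below their starved numbers in both probe sets, and the groups of 162202_f_at overlapped.

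The other Irf7 probe set was dim and varied between arrays of 1 group. Probe set 104669_at had 29.9, 41.4, 70.3 and 9.19 on newly transcribed treated arrays, against 20.1, 39.9, 37.6 and 3.35 on starved arrays. In amplified total RNA it spanned 7.32 to 90.4 on treated and 4.69 to 79.8 on starved arrays, and the difference by number ran from -2.04 to 2.36. In total RNA the 2 probe sets had differences of 0.16 ± 0.28 and 0.17 ± 0.17, each with 2 numbers higher and 2 lower. The f in the name of 162202_f_at marks probes that may also match related transcripts, so the 2 probe sets need not report the same RNA. Across the 23 arrays they correlated with r = 0.38, as a description over arrays that share numbers and clusters.

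Ifit1, Ifit2 and Ifit3 are neighbouring genes on chromosome 19 whose proteins recognise foreign RNA or bind the translation machinery. Their signs differed. Ifit2 was lower with serum in 4 of 4 numbers of newly transcribed RNA, Ifit1 was higher in 4 of 4 numbers of total RNA, and Ifit3 was higher in 2 of 4 numbers of newly transcribed RNA and 3 of 4 of total RNA. None passed the test in any kind of RNA without the block.

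Ifit2 had intensities of 139, 12.3, 19.4 and 45.3 on newly transcribed treated arrays, against 176, 39.0, 58.3 and 83.3 on starved arrays. Every treated array was below its starved number, yet arrays 1 and 4 of both conditions stood above arrays 2 and 3. Treated minus starved was -0.76 ± 0.59 in newly transcribed RNA (limma's adjusted p = 0.995). With the replicate number as a block its error was 0.15 (limma's adjusted p = 0.0703), and with arrays scaled to 1 median as well it passed, at -0.85 ± 0.15 (limma's adjusted p = 0.0458). The latter fit called 295 of 12422 probe sets. Amplified total RNA gave 106, 9.88, 11.9 and 50.9 on treated arrays, against 82.0, 20.9 and 70.2 on starved arrays, and the difference was -0.46 ± 0.64. In total RNA it was near the pseudocount of 16, with 17.8, 9.60, 10.4 and 24.6 on treated arrays, against 28.2, 29.6, 19.2 and 22.6 on starved arrays, and the difference was -0.39 ± 0.17 (limma's adjusted p = 1). The step from total starved (5.35 ± 0.17) to total treated (4.96 ± 0.31) was the 1 step in the order of its means that exceeded the SD of both neighbours.

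Ifit1 had 66.0, 112.5, 298.9 and 65.0 on newly transcribed treated arrays, against 75.3, 188, 243 and 43.7 on starved arrays. The arrays numbered 2 and 3 were high and those numbered 1 and 4 low in both serum conditions, and treated minus starved was -0.02 ± 0.60. Amplified total RNA gave 39.1, 84.9, 121.6 and 70.9 on treated arrays, against 9.75, 95.3 and 42.4 on starved arrays, a difference of 0.71 ± 0.53. In total RNA it had 129.6, 68.4, 79.4 and 90.5 on treated arrays, against 87.0, 36.8, 64.6 and 84.7 on starved arrays. The difference of 0.38 ± 0.25 there was positive in 4 of 4 numbers and missed the threshold (limma's adjusted p = 1).

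Ifit3 varied more between arrays of 1 group than between serum conditions in newly transcribed and amplified total RNA, with SDs of 0.40 and 0.35 on newly transcribed treated and starved arrays and of 0.55 and 0.79 on amplified ones. It had 176.6, 92.6, 124 and 90.4 on newly transcribed treated arrays, against 112, 115, 159.6 and 80.5 on starved arrays, a difference of 0.03 ± 0.25. The difference was -0.02 ± 0.45 in amplified total and 0.37 ± 0.27 in total RNA. A near-identical copy, Ifit3b, lies in the same gene cluster, and whether the probes tell the copies apart was not given in the sources used here, so the value is uncertain for Ifit3 alone.

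Gbp2 is a guanylate-binding GTPase that interferons induce strongly and that gathers on the vacuoles of intracellular pathogens. In newly transcribed RNA it had 66.7, 222, 386 and 74.8 on treated arrays, against 37.6, 126, 149 and 23.4 on starved arrays. Each treated array exceeded its starved number, by 0.63 to 1.29, while the groups overlapped because arrays 2 and 3 of both conditions stood above arrays 1 and 4. With values as deposited, number 1 had 38.6 treated against 39.4 starved. In amplified total RNA it had 123, 220.8, 189.7 and 156 on treated arrays, against 54.4, 200.0 and 72.5 on starved arrays. In total RNA it had 163, 244.5, 144 and 265.5 on treated arrays, against 74.1, 185, 149 and 236 on starved arrays, where array 3 was the exception.

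Gbp2 was the 1 member of the 8 called in newly transcribed RNA when the replicate number was a block, in a fit that called 1.74% of all probe sets. The difference was 0.97 with an SE of 0.67 without the block (limma's adjusted p = 0.965) and 0.15 with it (limma's adjusted p = 0.0417). By the check on array profiles, treated and starved arrays of the same number deviate together, and the block removes what they share. Arrays of different numbers were not compared. Numbers 1 and 4 share an array cluster, as do 2 and 3, so the check cannot tell a shared number from a shared cluster. With the array cluster as a block, Gbp2 was not called. The call with the replicate block was lost when any 1 pair was left out, with limma's adjusted p = 0.0828, 0.193, 0.209 and 0.0741 without pairs 1, 2, 3 and 4. It was also lost with values as deposited (0.47 ± 0.22, adjusted p = 0.319) and with a pseudocount of 1 (adjusted p = 0.152) or 64 (adjusted p = 0.0806). With arrays scaled to 1 median the call was kept (0.83 ± 0.14, limma's adjusted p = 0.0443), in a fit that called 295 of 12422 probe sets. Gbp2 was at 0.74 ± 0.41 in amplified total RNA and 0.37 ± 0.33 in total RNA, and in total RNA the block gave 0 of 8 members, against 0.483% of all probe sets. Leaving out 1 array moved the newly transcribed difference to between 0.53 (without treated array 3) and 1.30 (without treated array 1), and it was 0.60 without starved array 4.

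**Figure D2:**
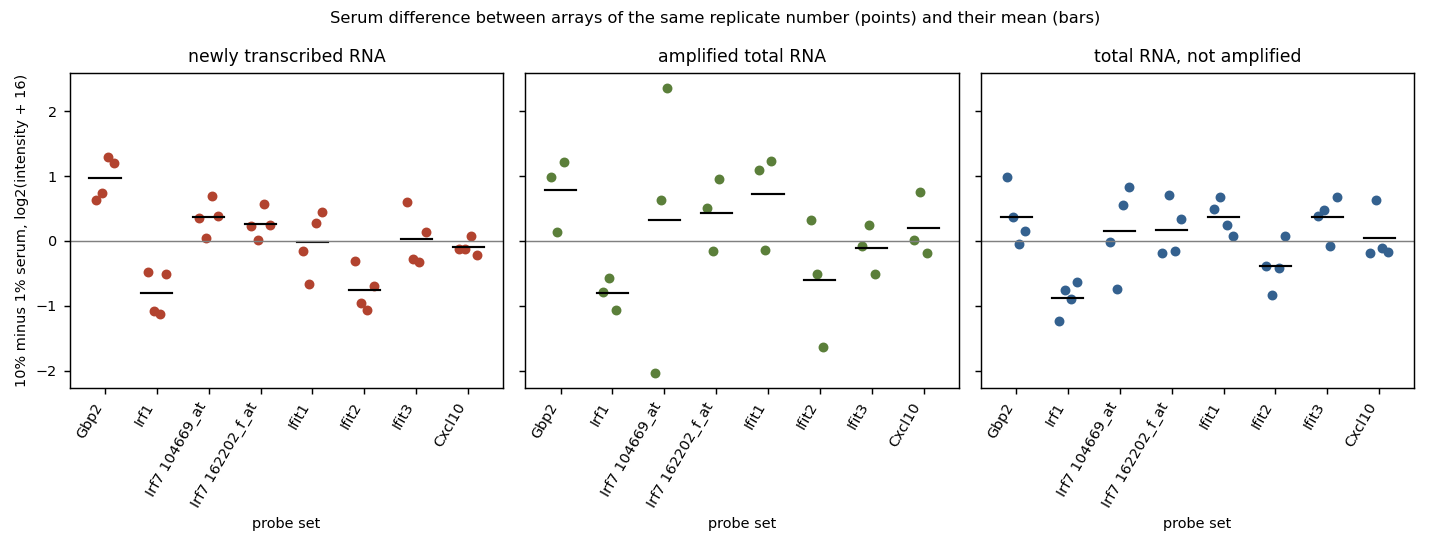
Serum difference of each probe set (10% minus 1% serum, log2(intensity + 16)) between the arrays of 1 replicate number (points) with the mean over numbers (black bars), in newly transcribed, amplified total and total RNA. All 11 points of Irf1 lie below 0, from -1.24 to -0.48, and 10 of 11 points of Gbp2 lie above it.

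Macrophage markers stood on the same side as Gbp2. Of 19 markers, 16 were positive in newly transcribed RNA (median 0.28), 18 in amplified total RNA (0.37) and 19 in total RNA (0.22), with 0 called in each, with and without the block, and 1, 0 and 1 at an unadjusted p below 0.05 without it. Their summed intensities overlapped between the groups. The sums ran from 4941 to 10830 on treated and 2830 to 8051 on starved arrays of newly transcribed RNA, and from 5845 to 14030 and 5740 to 13600 in total RNA. In amplified total RNA they ran from 6002 to 16980 on treated and 5744 to 16220 on starved arrays. Their part in the Gbp2 difference was not tested. Without the block 0 of 14 fibroblast markers were called in any kind of RNA (1 at an unadjusted p below 0.05 in newly transcribed RNA). With it, in newly transcribed RNA, 4 of 14 fibroblast markers were called, in a fit that called 1.74% of all probe sets. Thy1 at 1.04 ± 0.12, Col6a2 at 0.87 ± 0.15 and Col6a1 at 0.71 ± 0.11 rose, and Lum fell by 1.38 ± 0.23. The other Col6a1 probe set, also at 0.71, was not called (limma's adjusted p = 0.0576). All 4 calls were lost when pair 3 or pair 4 was dropped, since the fit then called 0 probe sets. The same held on unnormalized intensities and when 1 replaced 16 as pseudocount. Dropping pair 2 left 1 call over all probe sets, and dropping pair 1 left 25. The part of these fibroblast markers in the Gbp2 difference was not tested either. Of 9 endothelial and 8 lymphocyte and dendritic markers 0 were called in any kind of RNA, with or without the block, and 0 had an unadjusted p below 0.05 without it. In bulk RNA more cells of a type and more RNA per cell cannot be told apart.

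**Figure D3:**
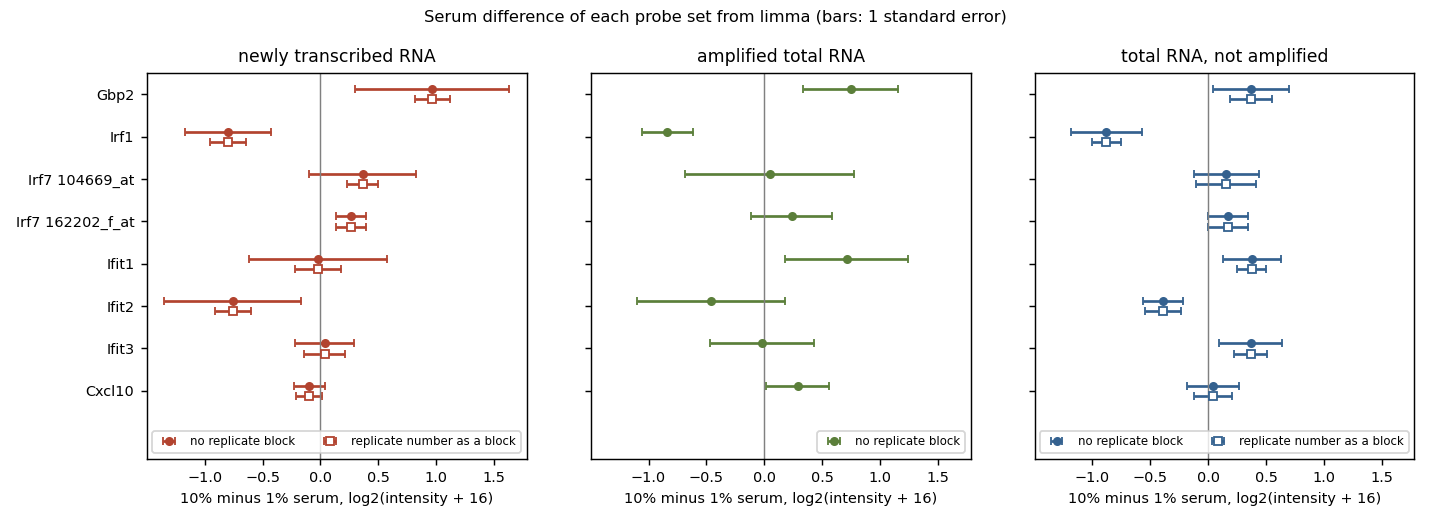
Serum difference from limma (10% minus 1% serum, log2(intensity + 16)) of each probe set in newly transcribed, amplified total and total RNA, with bars of 1 standard error, without a block (filled circles) and with the replicate number as a block (open squares) where the numbers pair. Gbp2 keeps its 0.97 in newly transcribed RNA while its error narrows to 0.15.

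Cxcl10, a chemokine that draws activated T cells and that interferon gamma and NF-kB induce, was dim. It was under an intensity of 16 on 14 of 23 arrays, and all 8 newly transcribed arrays were above 16. It had 17.4, 25.8, 25.2 and 22.8 on newly transcribed treated arrays, against 20.5, 29.6, 22.9 and 29.1 on starved arrays, a difference of -0.10 ± 0.13. It spanned 1.63 to 15.5 on treated and 1.53 to 11.2 on starved arrays of amplified total RNA, and 1.16 to 16.6 on treated and 2.43 to 13.2 on starved arrays of total RNA. Serum differences there were 0.29 ± 0.27 and 0.04 ± 0.22.

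By normalized values every newly transcribed array had a higher Cxcl10 value than every amplified array, whose highest was 15.5. The difference was 0.58 ± 0.21 in treated cells (limma's adjusted p = 0.194) and 0.96 ± 0.20 in starved cells (limma's adjusted p = 0.0557), and the groups did not overlap in either. With values as deposited the treated groups overlapped and the starved groups did not. Amplified treated array 4 then had 28.1, against 11.1, 26.3 and 20.1 on newly transcribed treated arrays 1, 2 and 4. The size depends on the pseudocount, since these values lie near or under it: a pseudocount of 64 gave 0.22 and 0.36 and a pseudocount of 1 gave 1.32 and 2.29 in treated and starved cells. In starved cells 7.7% of all probe sets were higher without overlap. The step from newly transcribed treated (5.27 ± 0.15) to amplified treated (4.69 ± 0.38) was the 1 step in the order of its means that exceeded the SD of both neighbours. Amplified minus unamplified total RNA was -0.11 ± 0.20 for Irf1 and 0.01 ± 0.18 for Cxcl10.

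**Figure D4:**
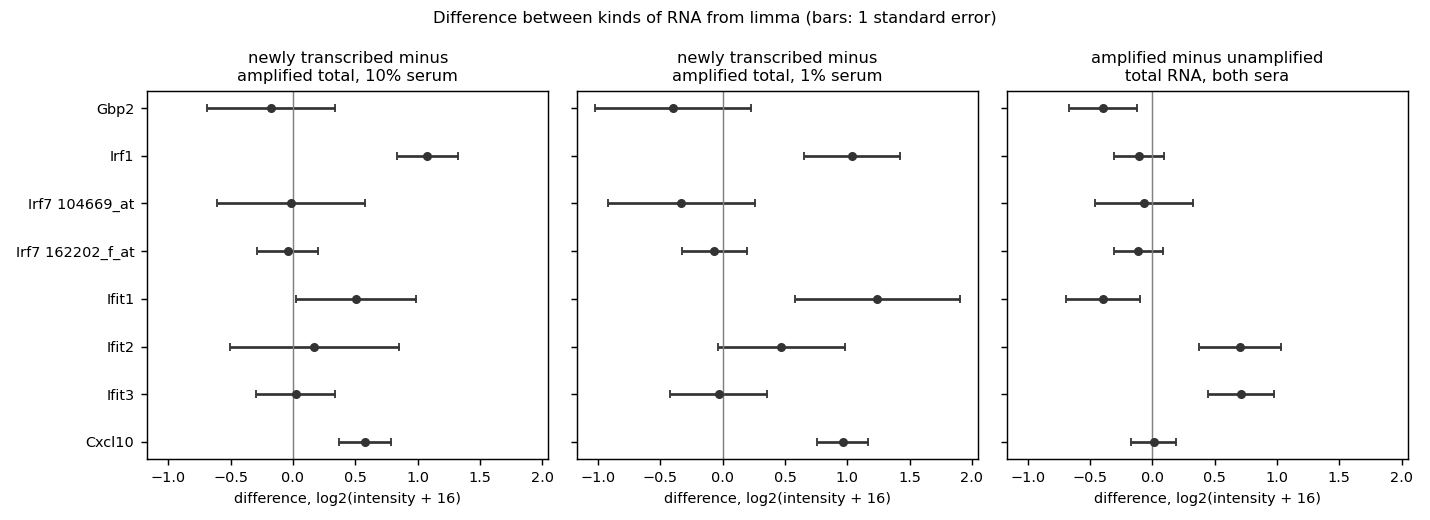
Difference between kinds of RNA from limma (log2(intensity + 16), bars of 1 standard error) for each probe set: newly transcribed minus amplified total RNA in 10% and in 1% serum, and amplified minus unamplified total RNA over both. Irf1 is at 1.08 and 1.04 and Cxcl10 at 0.58 and 0.96 in the left and middle panels, and Ifit2 and Ifit3 are at 0.70 and 0.71 in the right one.

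The remaining members did not pass the threshold between newly transcribed and amplified total RNA either. The Ifit1 differences exceeded their errors, by most in starved cells. In treated and starved cells the differences were 0.50 ± 0.48 and 1.24 ± 0.66 for Ifit1, 0.17 ± 0.68 and 0.47 ± 0.51 for Ifit2, and 0.02 ± 0.32 and -0.03 ± 0.39 for Ifit3. Gbp2 was at -0.17 ± 0.52 and -0.40 ± 0.63. Amplified minus unamplified total RNA was 0.71 ± 0.27 for Ifit3 (limma's adjusted p = 0.0814, and 0.00639 with a replicate block across kinds, added after seeing the data) and 0.70 ± 0.33 for Ifit2 (limma's adjusted p = 0.156). Here 0 of 8 members passed and 2 had an unadjusted p below 0.05, while 18.8% of all probe sets passed. Of the 40 steps between neighbouring group means of the 8 probe sets, 4 exceeded the SD of both neighbours, and they are the 4 given for Irf1, Ifit2 and Cxcl10. The serum response in newly transcribed RNA differed from that in total or in amplified total RNA for 0 of 8 members (0 with an unadjusted p below 0.05), and limma called 0% of all probe sets in both tests.

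The array clusters set several members apart. In newly transcribed RNA the first cluster had 23.4 to 74.8 and the second 126 to 386 for Gbp2, and 43.7 to 75.3 and 112.5 to 298.9 for Ifit1. Irf7 104669_at had 3.35 to 29.9 and 37.6 to 70.3. These 3 probe sets were apart between clusters, as were 28% of all probe sets. Among amplified arrays Gbp2, Ifit1, Ifit2, Ifit3 and Irf7 162202_f_at were apart, as were 33.8% of all. There Ifit2 had 50.9 to 106 in the first and 9.88 to 20.9 in the second cluster, and Ifit3 had 136 to 196 and 56.7 to 90.7. The clusters were formed on all probe sets, these included, so the separation is a description. Irf1 ranges overlapped in both kinds of RNA, with 87.2 to 207 and 119.9 to 437 in newly transcribed RNA.

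Across the 23 arrays the members split along the same lines. Gbp2 and Ifit1 correlated with r = 0.52 and Gbp2 and Ifit2 with r = -0.76, while Ifit2 and Ifit3 correlated with 0.65. After each group's mean was taken out, the values were 0.76, -0.67 and 0.63. Among the brighter genes with 1 symbol, those most like Irf1 were Eif1b (r = 0.86), Zscan21 (0.84) and Arl2bp (0.80), and those most like Gbp2 were Fth1 (0.86), Cnn1 (0.86) and the macrophage complement gene C1qb (0.83). Ifit2 was most like Marchf6 (0.96), Slc25a36 (0.95) and Zmym4 (0.95), Ifit3 like Fut8 (0.87), the RNA sensor Ifih1 (0.81) and Fez2 (0.81), and Ifit1 like Vps37b (0.86), Ddx24 (0.84) and Tgfb3 (0.84). Cxcl10 was most like Ppp2cb (0.88), Maip1 (0.83) and Gadd45a (0.83). For Irf7 the first were H13 (0.83) with 104669_at and Actc1 (0.73) with 162202_f_at. The arrays share numbers and clusters, so these are descriptions with no p.

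The wider pathway was set beside the members through 8 lists of 87 measured genes, each by its brightest probe set. Limma called 0 of the 87 with serum without a block in each kind of RNA, and 4, 3 and 5 had an unadjusted p below 0.05 in newly transcribed, amplified total and total RNA. With the replicate number as a block, where numbers pair, 3 were called in newly transcribed RNA, all higher, and 1 in total RNA. In newly transcribed, amplified total and total RNA 51, 59 and 51 of the 87 were positive, with medians of 0.07, 0.14 and 0.03.

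Most interferon ligands were dim. Of 9 measured, Ifng, Ifna4 and Ifna11 were under an intensity of 16 on all 23 arrays, and Ifnb1 was under it on 21. The brighter ones were Ifna5, with a median of 43.6 and 1 array under 16, and Ifnab, with a median of 29.3 and 4 arrays under it. None was called, and the list's medians were 0.08 in newly transcribed, 0.07 in amplified total and -0.03 in total RNA; Ifnab was at 0.18 ± 0.14 and Ifna2 at 0.14 ± 0.16 in newly transcribed RNA. Of 9 receptor and JAK-STAT genes, 6 were above 16 on all arrays and 0 were called. Ifngr2, a chain of the interferon gamma receptor, was at 0.51 ± 0.59 and Stat3 at 0.22 ± 0.56 in newly transcribed RNA. Of the other 4 interferon regulatory factors measured, Irf5 was at 0.75 ± 0.42 and Irf3, the factor that starts the Ifnb1 response, at 0.20 ± 0.43, and neither passed.

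Sensors, effectors and antigen presentation genes stayed under the threshold with and without the block. Among 7 sensors and adaptors, the lipopolysaccharide co-receptor Cd14, also a macrophage marker, was at 0.84 ± 0.52 and the kinase Tbk1 at -0.57 ± 0.48 in newly transcribed RNA. Of 29 further genes listed as interferon-stimulated effectors, Ifrd1 among them, 16 were positive and 13 negative (median 0.05). Ifi204, a DNA-binding protein, was at 0.55 ± 0.22 and the membrane protein Ifitm3, which blocks virus entry, at 0.55 ± 0.62. Other Ifi204 probe sets were at -0.15 and 0.28. Of 14 antigen presentation genes 8 were positive (median 0.09), with the invariant chain Cd74 at 0.53 ± 0.25 and the peptide transporter Tap2 at -0.39 ± 0.56. Among 4 other chemokines, Ccl2 was at 0.27 ± 0.17 in newly transcribed, 0.58 ± 0.32 in amplified total and 0.62 ± 0.25 in total RNA. Ccl7 was at -0.11 ± 0.35 in newly transcribed RNA.

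The called pathway genes were negative regulators of cytokine signalling. With the replicate number as a block, 3 of 11 rose in newly transcribed RNA and 1 of 11 in total RNA, against 1.74% and 0.483% of all probe sets. Socs3, an inhibitor of JAK kinases, rose by 1.31 ± 0.18 in newly transcribed RNA (limma's adjusted p = 0.0378; 1.09 in its other probe set, not called). Cish rose by 1.41 ± 0.22 (limma's adjusted p = 0.0417) and Socs2 by 1.47 ± 0.24 (limma's adjusted p = 0.0456). In total RNA Socs2 rose by 1.25 ± 0.13 (limma's adjusted p = 0.0267). These calls were lost without pair 3 or pair 4, as well as without normalization or with 1 in place of 16 as pseudocount, where the blocked fit called 0 probe sets in both kinds of RNA. Without pair 2 the blocked fit called 1 probe set in newly transcribed RNA, so at most 1 of the 3 calls there could remain. Without pair 1 it called 25. The list's medians were 0.26 in newly transcribed, 0.36 in amplified total and 0.26 in total RNA. These genes are also immediate targets of growth hormone and interleukin signalling, and the list had been chosen with earlier results of these arrays known.

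**Figure D5:**
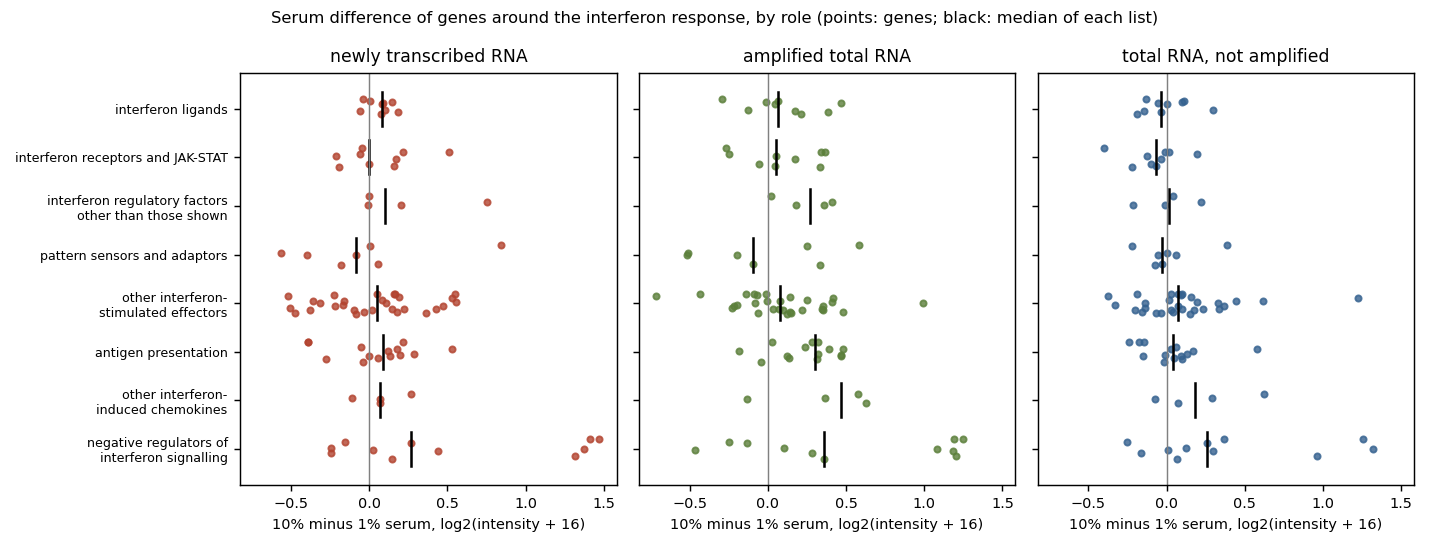
Serum difference (10% minus 1% serum, log2(intensity + 16)) of the 87 measured pathway genes in 8 lists by role, in newly transcribed, amplified total and total RNA, with each gene as a point and each list's median as a black bar. Points above 1 are in the negative regulators, with Socs2 at 1.47 in newly transcribed RNA, and in total RNA also Ifrd1 at 1.23. Ifrd1 was listed with the effectors, and whether it answers interferon was not tested.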

How the data were processed

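RNA of 23 samples was measured on Affymetrix MG-U74Av2 arrays. Per the labels' protocols, RNA was reverse-transcribed, linearly amplified and labelled with biotin. The deposited values are linear signal intensities, 1 per probe set and array; how probes were summarised or scaled is not given in the sources used here. Arrays were quantile normalized and log2(intensity + 16) was taken. The 66 control probe sets were left out. Groups were compared with lmFit and eBayes of limma 3.58.1 under R 4.3.3, two-sided and without a block. P-values were adjusted by Benjamini-Hochberg across 12422 probe sets, with 0.05 as the threshold. The number of arrays limits the precision.

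Gene names came from the platform annotation: 10833 tested probe sets had 1 symbol, 396 several and 1193 none listed. The Atf1 probe set lists several genes and is not reported. Members were named as all their probe sets; of each pathway list, genes called in a serum comparison and the 2 largest differences in newly transcribed RNA were named. The most like genes were the 3 with the highest Pearson correlation. Members and lists were chosen with earlier results of these data known.

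Same-numbered arrays were checked as pairs by correlating deviations from group means over all probe sets. The pairing comes from these data, since no label states what arrays of 1 number have in common. Arrays of different numbers were not correlated. Newly transcribed arrays 1 and 4 share a cluster, as do 2 and 3, so there the check cannot tell number from cluster. Treated and starved arrays paired in newly transcribed (0.70 to 0.80) and total RNA (0.23 to 0.70), as did newly transcribed and amplified treated arrays (0.56 to 0.73) and amplified and total treated arrays (0.14 to 0.30). Amplified treated and starved arrays (-0.47 to 0.76), newly transcribed and amplified starved arrays (-0.39 to 0.68) and amplified and total starved arrays (0.07 to 0.31) did not. Alternatives were no or other normalization, pseudocounts of 1 and 64, a filter on dim probe sets, all arrays in 1 fit, replicate or cluster blocks and leaving out each array.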

Additional observations from a re-analysis of the deposited data

How the results depend on the processing

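For the 8 comparisons, 1226 differences of the 8 probe sets were recomputed under other settings. Of these, 1080 kept their direction and side of the threshold, 12 newly passed it and 134 turned sign, of which 0 passed the threshold. None could lose the threshold, since 0 of 8 members passed it in each main comparison. The count of members called became 1 of 8, in place of 0, in these cases. In serum-treated minus starved newly transcribed RNA it was 1 with the replicate block (Gbp2). In newly transcribed minus amplified treated RNA it was 1 (Irf1) with quantile normalization within each kind, all 23 arrays in 1 fit, the replicate block or the array cluster as a block, and 0 to 1 when an array was left out (1 without newly transcribed treated array 1). In starved cells it was 1 (Cxcl10) with quantile normalization within each kind, all arrays in 1 fit or the cluster block. In amplified minus unamplified RNA it was 1 (Ifit3) with the replicate block across kinds, chosen after seeing the data, and 0 to 1 when an array was left out (1 without amplified treated or starved array 2). With arrays scaled to 1 median and the replicate block, added after seeing the data, Gbp2 (0.83 ± 0.14, limma's adjusted p = 0.0443) and Ifit2 passed (-0.85 ± 0.15, limma's adjusted p = 0.0458). Irf1 stood at the threshold there (-0.92 ± 0.17, limma's adjusted p = 0.05). That fit called 295 of 12422 probe sets. The differences that turned sign follow by setting, first the serum differences, then the differences of responses, then those between kinds of RNA. With values as deposited, Ifit3 was at -0.45 in newly transcribed and 0.50 in amplified RNA. The response of newly transcribed minus total RNA was -0.23 for Gbp2, -0.78 for Irf1 and -0.33 and -0.37 for Irf7 (104669_at first throughout), and minus amplified RNA it was -0.58 for Gbp2, -0.91 for Irf1, -0.49 and -0.37 for Irf7 and -0.94 for Ifit3. Newly transcribed minus amplified starved RNA was 0.39 for Gbp2, 0.44 and 0.35 for Irf7 and 0.99 for Ifit3, and amplified minus unamplified RNA -0.078 for Cxcl10. With arrays scaled to 1 median, Ifit3 was at -0.10 and 0.055 in newly transcribed and amplified RNA and Cxcl10 at -0.0036 in total RNA, the Irf1 differences of responses at -0.16 and -0.15, that of Ifit3 against amplified RNA at -0.15, and Ifit3 in starved cells between kinds at 0.18. With quantile normalization within each kind, Irf1 newly transcribed minus total response was -0.015, newly transcribed minus amplified treated RNA 0.063 for Gbp2 and 0.11 and 0.14 for Irf7, starved RNA 0.088 for Irf7 162202_f_at and 0.21 for Ifit3, and amplified minus unamplified -0.048 for Cxcl10. A pseudocount of 1 gave Cxcl10 -0.010 with serum in total RNA and -0.028 in amplified minus unamplified RNA, and Irf7 104669_at 0.11 between kinds in treated cells. A pseudocount of 64 gave Irf1 -0.057 and -0.093 as differences of responses and Irf7 104669_at 0.026 in amplified minus unamplified RNA. The replicate block gave -0.17 for Irf7 162202_f_at as the response against amplified RNA and 0.11 for Ifit3 between kinds in starved cells. The cluster block gave Irf7 104669_at -0.16 and Ifit3 0.15 with serum in amplified RNA, Ifit3 -0.012 as the response against amplified RNA and 0.0091 between kinds in starved cells, and in amplified minus unamplified RNA 0.12 for Gbp2, 0.67 and 0.36 for Irf7, 0.23 for Ifit1, -0.22 for Ifit2 and -0.21 for Cxcl10. Leaving out an array turned 27 differences in at least 1 case. Serum differences ran from -0.46 to 0.31 for Ifit1 and -0.14 to 0.18 for Ifit3 in newly transcribed RNA, from -0.11 to 0.20 for Cxcl10 and -0.0044 to 0.33 for Irf7 104669_at in total RNA, and from -0.56 to 0.55 for Irf7 104669_at and -0.46 to 0.32 for Ifit3 in amplified RNA. Responses against total RNA ran from -0.19 to 0.36 for Irf1, -0.12 to 0.53 and -0.029 to 0.23 for Irf7 and -0.29 to 0.015 for Cxcl10. Against amplified RNA they ran from -0.28 to 0.49 for Ifit3, -0.24 to 0.31 for Irf1, -0.79 to 0.14 for Ifit2, -0.26 to 0.55 for Gbp2 and -0.19 to 0.92 and -0.29 to 0.21 for Irf7. Between newly transcribed and amplified treated RNA they were -0.61 to 0.15 for Gbp2, -0.38 to 0.35 and -0.24 to 0.11 for Irf7, -0.32 to 0.61 for Ifit2 and -0.18 to 0.23 for Ifit3, and in starved cells -0.47 to 0.30 for Ifit3, -0.94 to 0.17 and -0.25 to 0.25 for Irf7 and -0.72 to 0.087 for Gbp2. In amplified minus unamplified RNA they were -0.081 to 0.10 for Cxcl10 and -0.32 to 0.23 for Irf7 104669_at. The causes were not tested. Under the 4 scalings Gbp2 stayed positive and Irf1 and Ifit2 negative in all 3 kinds, while Ifit3 in newly transcribed and amplified RNA and Cxcl10 in total RNA turned sign; the median of all probe sets was -0.18, 0.25 and 0.21 in newly transcribed, amplified and total RNA with values as deposited.

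Counts over all probe sets moved more. Serum in newly transcribed RNA gave 0, against 216 with the replicate block, 45 with the cluster block, 30 with all arrays in 1 fit and 3 with a pseudocount of 64. The 216 became 25, 1, 0 and 0 without pairs 1, 2, 3 and 4 and 0 on the unnormalized scale or when 1 was added before the log. Total RNA gave 15, against 60 with the block, 24 with the filter, 7 with a pseudocount of 1, 2 as deposited and 1 to 19 with an array left out; the 60 became 8, 10, 0 and 0 without pairs 1 to 4 and 0 as deposited or with a pseudocount of 1. Amplified RNA gave 0, against 3 with all arrays. Newly transcribed minus amplified treated RNA gave 503, against 2626, 2257, 1413, 231 and 0 with the replicate block, cluster block, all arrays, a pseudocount of 1 and values as deposited, and 147 to 619 with an array left out. In starved cells 394 became 1479 with the cluster block, 1174 with all arrays, 244 with 1 median, 0 with the replicate block, a pseudocount of 1 or values as deposited, and 0 to 237 with an array left out. Amplified minus unamplified RNA gave 2338, against 264 as deposited. The cluster block could not be fitted in total RNA, which lies in 1 cluster, nor a within-kind replicate block for amplified minus unamplified RNA. Dim signal limits Cxcl10, Irf7 104669_at and Ifit2, which were under 16 on 14, 5 and 5 of 23 arrays.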
